A study of Homo sapiens with 8 samples.

Results

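The genes described here are HMGA1, HMGA2, the IGF2BP genes and the LIN28 genes, which share oncofetal expression and the let-7 microRNAs as a known regulator. They were chosen by symbol alone, as every listed Ago2 peak annotated to HMGA1, to HMGA2 or to a symbol that begins with IGF2BP or LIN28. That gave 85 of 22506 peaks, in 6 of 6326 genes. IGF2BP1 held 55 peaks, HMGA2 14, HMGA1 6, LIN28B 5, IGF2BP3 4 and IGF2BP2 1, and 0 peaks were listed for LIN28A. The cells were 293S, a line derived from HEK293 cells of human embryonic kidney. One group had received 20 µg/mL emetine, an inhibitor of translation elongation, for 60 minutes, and the control group had no treatment. Ago2, the Argonaute protein that carries microRNAs to their targets, was crosslinked to RNA and immunoprecipitated (CLIP). Each treatment was 1 culture divided into 3 CLIP aliquots, with an Abnova, a Santa Cruz or a Sigma antibody to Ago2, and 1 aliquot for RNA sequencing. The p-values given here therefore measure the spread between aliquots and antibodies, not between cultures.

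The let-7 family is expressed late in development and in differentiated tissue, where it represses a set of growth-promoting fetal genes. LIN28A and LIN28B bind let-7 precursors and block their maturation, while let-7 in turn represses LIN28 mRNAs. HMGA1 and HMGA2 are AT-hook proteins that bend DNA and organise chromatin, and IGF2BP1, IGF2BP2 and IGF2BP3 bind mRNAs and govern their stability, localisation and translation. HMGA2 lies among the best known let-7 targets, since chromosomal rearrangements that remove its 3' UTR also remove its let-7 sites.

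The mature microRNAs show the sequence that ties these genes together. RefSeq on GRCh38.p14 lists 9 let-7 family members from 12 loci. Like 2 other listed microRNAs, all 9 carry the same seed, GAGGUAG, at bases 2 to 8. The following 3 differ outside the seed, which is in capitals, and are written 5′ to 3′.
hsa-let-7a-5p: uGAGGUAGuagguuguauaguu
hsa-let-7d-5p: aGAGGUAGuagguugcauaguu
hsa-miR-98-5p: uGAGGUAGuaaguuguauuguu

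The 3' UTR of each of the 6 genes holds at least 1 match to that seed. The motif CTACCTC, which pairs with bases 2 to 8, was searched on the transcript strand of 1 GENCODE transcript per gene (GRCh38), together with its extension CTACCTCA. HMGA2, IGF2BP1 and LIN28B each hold 4 matches, and HMGA1, IGF2BP2 and IGF2BP3 hold 1 each. Among 5720 genes of the table whose 3' UTR was read, 712 (12.4%) hold the 7-base match and 4.79% the 8-base one. Longer UTRs hold a match more often, and most of these 6 are longer than the median of 1679 nt. Among UTRs at least as long as that of the gene, the share with a 7-base match was 18.1% for HMGA1 (1347 nt), 25.9% for HMGA2 (3003 nt), 34.5% for LIN28B (4549 nt) and 43.0% for IGF2BP1 (6206 nt). It was 19.9% for IGF2BP2 and 21.4% for IGF2BP3. Per kilobase of 3' UTR the 6 genes have 0.46 (IGF2BP3) to 1.33 (HMGA2) matches, against 0.0628 over all these UTRs. The genes share let-7 as a known regulator, so an excess of matches follows from their choice and is no separate finding. A match is a description of letters, and the peaks are on hg19, so the matches were not placed against the peaks. The sites below are those of HMGA2, which were the most dense, and 1 of each other gene, with the match in capitals and the GRCh38 position.
HMGA2 site 1, chr12:65963299-65963320, + strand: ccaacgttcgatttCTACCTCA
HMGA2 site 2, chr12:65964534-65964555, + strand: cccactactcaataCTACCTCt
HMGA2 site 3, chr12:65964946-65964967, + strand: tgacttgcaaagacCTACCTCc
HMGA2 site 4, chr12:65965799-65965820, + strand: atcaaaacacactaCTACCTCt
HMGA1 site, chr6:34245830-34245851, + strand: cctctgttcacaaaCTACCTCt
IGF2BP1 site 1, chr17:49051062-49051083, + strand: gtgtgcgaagtaaaCTACCTCA
IGF2BP2 site, chr3:185644220-185644241, - strand: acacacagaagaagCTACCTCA
IGF2BP3 site, chr7:23311795-23311816, - strand: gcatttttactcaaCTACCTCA
LIN28B site 1, chr6:105078813-105078834, + strand: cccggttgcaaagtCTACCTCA
The first HMGA2 match begins 21 bases into its 3' UTR and the last at base 2521 of 3003. The first LIN28B match begins at base 44 of 4549.

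The deposited table gives each peak as the authors' average and ratio, and whole reads per library were recovered from them for 22501 peaks, all 85 of these among them. CLIP libraries are numbered 1 to 3 within a treatment by the falling value of 1 read. Library 1 was the shallowest, at 40945 emetine and 39776 control reads in peaks, and the other 4 held 97176 to 117679. The RNA libraries held 3770419 reads with emetine and 1562096 in the control. Of the markers chosen for HEK293 cells, 2 of 7 (NEFL and VIM) had listed peaks, and 0 of 9 markers of other cell types had one. A listed peak has at least 11 reads over the 6 libraries, so a gene without one may still be expressed.

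Ago2 reads in HMGA2 were higher with emetine and those in IGF2BP1 and LIN28B lower, but none of the 6 genes passed the test. By mean logs 3 of the 6 were higher and 3 lower, against 51.1% higher among all genes. In limma with Benjamini-Hochberg adjustment, 0 of 6 genes were called, as were 0 of all 6321 genes (0.0%), where 116 (1.84%) had an unadjusted p under 0.05. With limma-voom 351 genes had an unadjusted p under 0.05 and 1, which is no member, was called. After the authors' normalisation the libraries of both treatments overlapped for all 6 genes, against 5.19% of all genes whose libraries did not overlap. Fewer cells with an RNA and less of it per cell cannot be told apart in such bulk samples.

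HMGA2, an architectural chromatin protein of embryonic and tumour cells, had 40, 58 and 62 reads in emetine libraries 1 to 3, against 23, 32 and 53 in control libraries 1 to 3. After the authors' normalisation these were 355, 174 and 174 for emetine, against 184, 90.3 and 129 for the control. Each emetine library was above the control library of the same number, though that number is no known pairing of libraries. The lowest emetine values lay below the highest control value. The log2 change, a difference of mean log2(value + 1), was 0.77 (SE 0.80), with an adjusted p of 0.80 in limma. As a ratio of depth-scaled read totals it was 1.65, with an exact 95% interval of 1.28 to 2.12 that covers counting error only. Overlapping 5' UTR peaks can share reads, so the HMGA2 totals may count some reads more than once. With only the largest of overlapping peaks kept, the log2 change was 0.80 (limma adjusted p = 0.80).

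HMGA1, the more widely expressed member of the same family, had 11, 7 and 22 reads with emetine, against 6, 7 and 35 in the control. Most reads of both treatments came from library 3, and the groups overlapped throughout. The log2 change was 0.21 (SE 1.31, limma adjusted p = 1.00), and the ratio of totals 0.926 (0.593 to 1.44). Without emetine library 1 the change was -0.26, and without control library 2 it was -0.34. Overlapping 3' UTR peaks of HMGA1 can share reads as well, and with only the largest of them kept the log2 change was 0.11. HMGA1 has processed pseudogenes, and how reads with several matches were handled is not given in the sources used here, so its reads are uncertain.

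IGF2BP1, which binds and stabilises growth-related mRNAs, carried most of the reads of the set. It had 91, 222 and 141 reads with emetine, against 93, 421 and 403 in the control. The normalised values were 807, 667 and 396 for emetine, against 744, 1188 and 978 for the control, so the 2 deeper control libraries stood above all emetine libraries while control library 1 lay within their range. The log2 change was -0.67 (SE 0.42, limma adjusted p = 0.80). The ratio of totals was 0.550 (0.491 to 0.616, counting error only). As a share of all recovered CLIP reads IGF2BP1 took 0.222%, 0.212% and 0.145% with emetine, against 0.234%, 0.358% and 0.388% in the control. On that scale the groups did not overlap, with a small margin at control library 1 (exact two-sided permutation p = 0.1). The overlap thus depends on the scaling, and how many of all genes separate on this scale was not computed.

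IGF2BP3, a fetal RNA-binding protein that many carcinomas express again, had 7, 40 and 4 reads with emetine, against 7, 8 and 14 in the control. Emetine library 2 alone was high, and without it the log2 change of 0.33 (SE 1.39, limma adjusted p = 0.99) became -0.38. IGF2BP2, which remains expressed in many adult tissues, had 0 reads in each emetine library and 0, 0 and 12 in the control. Its 1 peak rests on control library 3. With the emetine total set at a floor of 3 reads it was 3.60-fold lower with emetine, a value that depends on that floor. The limma log2 change was -1.64 (SE 1.93, adjusted p = 0.80), and without control library 3 the gene had no reads left.

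LIN28B, the blocker of let-7 maturation, had 1, 1 and 6 reads with emetine, against 0, 67 and 25 in the control. Control libraries 2 and 3 were high and control library 1 had none, so the groups overlapped. The ratio of totals was 0.0966 (0.0405 to 0.198, counting error only), and the log2 change was -1.35 (SE 1.96, limma adjusted p = 0.87). Without control library 2 the log2 change was 0.18.

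**Figure D1:**
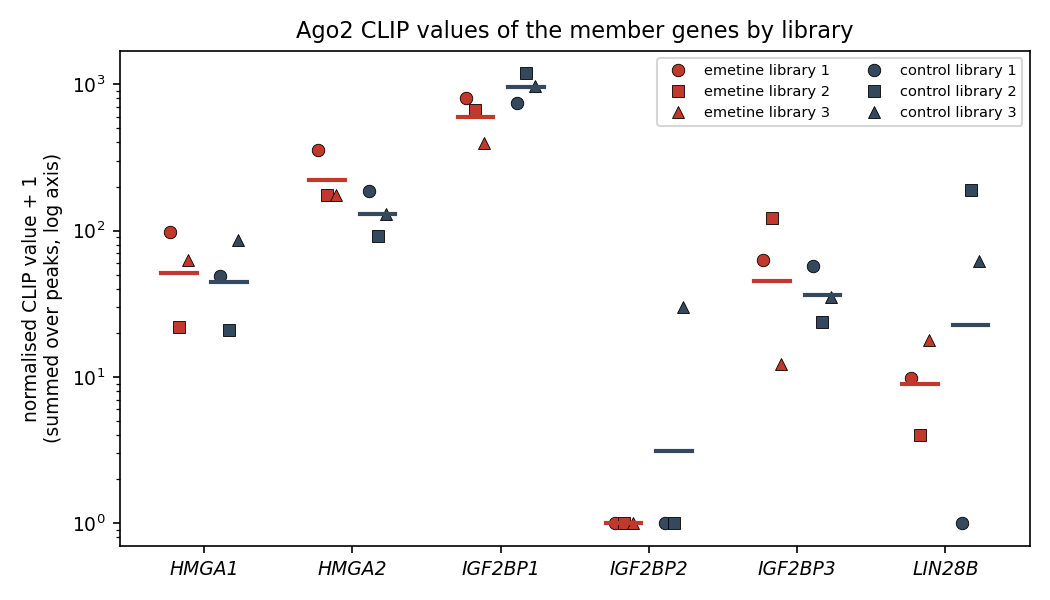
Normalised Ago2 CLIP value plus 1 of each gene (log axis), summed over its peaks, for emetine libraries 1 to 3 (red, left) and control libraries 1 to 3 (dark, right), with a line at the mean of the logs. HMGA2 runs from 174 to 355 with emetine and from 90.3 to 184 in the control, IGF2BP1 from 396 to 807 with emetine and from 744 to 1188 in the control, and both pairs overlap.

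Within the set, HMGA2 reads relative to IGF2BP1 reads were higher in all emetine libraries than in any control library. HMGA2 gave 44.0, 26.1 and 44.0 reads per 100 IGF2BP1 reads with emetine, against 24.7, 7.60 and 13.2 in the control. The lowest emetine library stood just above the highest control library. Reads shared by overlapping peaks can be counted more than once in both genes. The means were 38.0 ± 10.3 with emetine and 15.2 ± 8.74 in the control (SD, n = 3 each), and the two-sided exact permutation test gave p = 0.1, the smallest this design allows. This measure was chosen after its values were seen, so its separation and its p-value are a description and not a test. IGF2BP1 made up 60.7%, 67.7% and 60.0% of the reads of the set with emetine, against 72.1%, 78.7% and 74.4% in the control (exact permutation p = 0.1). The reads of HMGA2 and IGF2BP1 enter this share as well, so it is no separate support.

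The 85 peaks together took 0.366%, 0.313% and 0.242% of all recovered CLIP reads with emetine, against 0.324%, 0.455% and 0.522% in the control. The means were 0.307% ± 0.0625 with emetine and 0.434% ± 0.101 in the control (SD, n = 3 each), with p = 0.2 in the exact two-sided permutation test. Without IGF2BP1 the difference of means was 0.00684 percentage points, so it rested on that gene.

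The 3' UTR held 74 of the 85 peaks, and its share of the reads differed by less than the spread between libraries. It was 87.3%, 90.2% and 90.2% with emetine, against 85.3%, 91.4% and 90.2% in the control. The means were 89.3% ± 1.67 with emetine and 89.0% ± 3.25 in the control (SD, n = 3 each; exact permutation p = 0.9). Over all listed peaks the share was lower, at 46.6% ± 14.2 with emetine and 51.4% ± 17.3 in the control (SD, n = 3 each; exact permutation p = 0.5). In HMGA2 the share ran from 57.5% to 71.0% with emetine and from 39.1% to 100% in the control. Its 5' UTR peaks took a mean of 24.1% with emetine and 29.1% in the control, and its coding peaks 10.7% and 5.66%.

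At the level of single peaks, 36 of 85 were higher and 49 lower with emetine, so that 42.4% were higher, against 50.2% of all 22501 peaks (49.8% were lower). Among the 74 in 3' UTRs 30 were higher (40.5%), against 47.2% of all 3' UTR peaks. The median log2 change was -0.16 over the 85 and 0.01 over all peaks. In limma 0 of the 85 were called (0.0% of all peaks), and limma-voom called 0 peaks as well. At an unadjusted p under 0.05 there were 2, next to 240 (1.07%) of all peaks, or 552 of all peaks with limma-voom. The libraries of both treatments did not overlap in 2 peaks that were higher (2.55% of all peaks) and 1 that was lower (1.43%), so in 3 of 85 peaks, against 3.97% of all peaks.

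The median width of the 85 peaks was 40 nt, against 30 nt over all peaks, and their median depth 19 reads, against 15. IGF2BP1 carried the difference in depth, with a median of 20 reads, while HMGA1 had 12.5, LIN28B 13 and IGF2BP2 12. Reads were present in all 6 libraries for 11 of 85 (12.9%), against 4.79% of all peaks, and 9 of these 11 were IGF2BP1 peaks, with 0 in HMGA2, LIN28B and IGF2BP2. Reads came from a single library for 7 (8.24%), against 26.4% of all peaks, and for 2 of the 5 LIN28B peaks.

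In HMGA2, 9 of 14 peaks were higher and 5 lower with emetine, with a median log2 change of 0.89. The 3' UTR peak at chr12:66359718-66359752 (hg19, + strand) had 3, 10 and 12 reads with emetine and 0 reads in each control library. All 3 emetine libraries stood above all control libraries. With the control total set at a floor of 3 reads the peak was 9.26-fold higher, a value that depends on that floor. Its fitted log2 change of 4.95 (SE 2.02) had an unadjusted p of 0.014 and a limma adjusted p of 0.78. On one side of it, the peak at chr12:66359577-66359611 had 6, 0 and 7 reads with emetine, against 0 in each control library. On the other, chr12:66359824-66359882 had 0, 9 and 1 reads with emetine, against 3, 0 and 2 in the control. These neighbours, named after their values were seen, overlapped between treatments.

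The HMGA2 peak with most reads, at chr12:66357496-66357518, the first listed in the 3' UTR, had 8, 17 and 7 reads with emetine, against 2, 0 and 14 in the control. Control library 3 lay within the emetine values, so the groups overlapped, and the ratio of totals was 2.22 (1.18 to 4.34, counting error only). The fitted log2 change was 2.34 (SE 1.70, limma adjusted p = 0.78), and it was 0.80 without control library 2 and 3.37 without control library 3. Other 3' UTR peaks went the other way in single libraries: chr12:66358318-66358341 had 3, 0 and 0 reads with emetine and 0, 19 and 0 in the control. The 3 peaks of the 5' UTR held 17, 6 and 12 reads with emetine, against 14, 0 and 14 in the control. Those at chr12:66218965-66219011 and chr12:66218986-66219059 overlap, so these sums may count some reads more than once. The largest 5' UTR peak, chr12:66218986-66219059, had 9, 0 and 4 reads with emetine against 6, 0 and 5, and its groups overlapped. Its log2 change of 0.21 became -1.35 without control library 2 and -1.30 without emetine library 1.

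The 6 HMGA1 peaks were divided, with 2 higher and 4 lower with emetine. The 3' UTR peak at chr6:34213325-34213378 (hg19, + strand) had 4, 2 and 6 reads with emetine, against 1, 2 and 11 in the control. It was the only one with reads in all 6 libraries, and its groups overlapped. The peak at chr6:34212635-34212684 had 1, 0 and 12 reads with emetine, against 0, 0 and 2 in the control, and the 5' UTR peak at chr6:34204655-34204709 had 0, 0 and 2 against 2, 0 and 9. Both rested mainly on library 3 of one treatment.

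**Figure D2:**
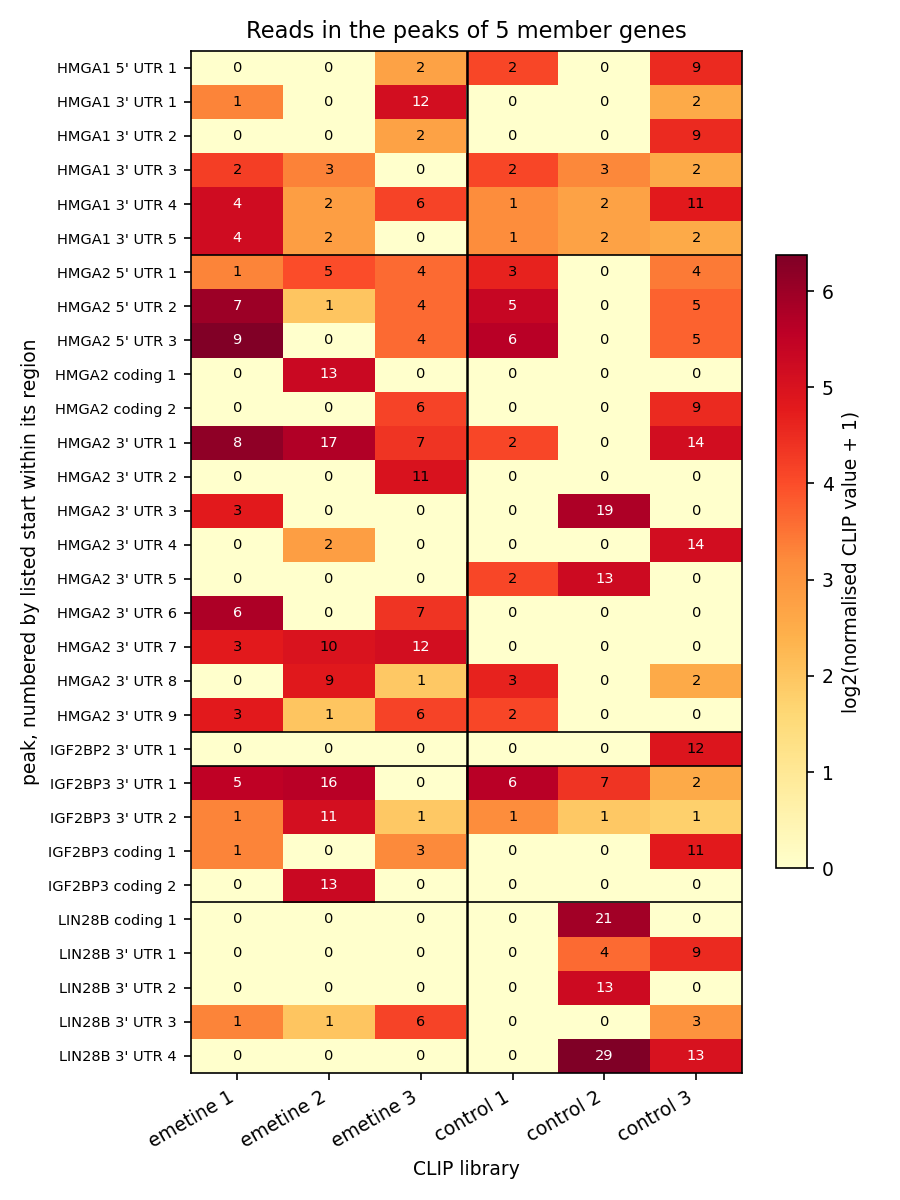
Recovered reads (printed numbers) in each peak of HMGA1, HMGA2, IGF2BP2, IGF2BP3 and LIN28B, with emetine libraries 1 to 3 left and control libraries 1 to 3 right of the line and the colour giving log2(normalised value + 1). HMGA2 3' UTR peak 7 has 3, 10 and 12 reads with emetine and none in the control, while 4 of 5 LIN28B peaks have reads in the control only.

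Along IGF2BP1, 53 of 55 peaks lay in the 3' UTR and formed 45 separate stretches, since 8 overlapped or touched the peak before. They covered 2253 nt of a span of 6518 nt (34.6%). This span is longer than the 3' UTR of 6206 nt searched for let-7 matches, so that search did not reach all of it. Overlapping peaks can share reads, so the sum over the gene counts some reads more than once. With emetine 21 of the 55 were higher and 34 lower, and the median log2 change was -0.30.

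The span was divided into 3 segments of equal length, a division that was not among the planned results. In segment 1 the reads were 26, 63 and 39 with emetine, against 32, 143 and 143 in the control, a ratio of depth-scaled totals of 0.447 (0.361 to 0.551). In segment 2 they were 36, 88 and 46 with emetine, against 22, 86 and 92 in the control, a ratio of 0.944 (0.765 to 1.16). In segment 3 they were 28, 71 and 56 with emetine, against 36, 167 and 158 in the control, a ratio of 0.477 (0.393 to 0.577). After normalisation the control libraries all stood above the emetine libraries in segments 1 and 3, while the groups overlapped in segment 2. Among all genes, summed over their peaks, 2.18% were separated in that direction, and no share was computed for segments. In segment 1 the values were 230, 189 and 109 with emetine, against 256, 404 and 347 in the control, so the margin at control library 1 was small. In segment 3 they were 248, 213 and 157 with emetine, against 288, 471 and 383 in the control. The intervals cover counting error only, and reads shared by overlapping peaks can be counted more than once in these sums. The difference between segments was not tested over libraries.

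Among single IGF2BP1 peaks, chr17:47127468-47127495 (hg19, + strand) had 2, 26 and 13 reads with emetine, against 0, 0 and 1 in the control. It was higher in 3 of 3 emetine libraries, with a ratio of 45.6 (7.73 to 1843), a log2 change of 4.66 (SE 1.94), an unadjusted p of 0.016 and a limma adjusted p of 0.78. The peak that touches it, chr17:47127495-47127519, had 2, 0 and 1 reads with emetine, against 0, 0 and 17 in the control. Most reads of the first peak came from emetine libraries 2 and 3 and most of the second from control library 3.

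The peak at chr17:47131717-47131775, named after its values were seen, had 1, 1 and 2 reads with emetine, against 4, 27 and 15 in the control. It was the only peak of the set whose control libraries all stood above the emetine libraries (log2 change -2.84, SE 1.73, limma adjusted p = 0.78). A listed peak that overlaps it, chr17:47131699-47131739, had 2, 10 and 2 reads with emetine, against 0, 8 and 9 in the control. Its log2 change was 0.94 and its groups overlapped. The peak with most reads, chr17:47130456-47130484, had 5, 16 and 3 against 8, 23 and 14, with a ratio of 0.593 (0.345 to 0.994, counting error only) and overlapping groups. Its log2 change of -0.95 was -0.17 without emetine library 3 and ran to -1.36 with another library left out.

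Of the further named IGF2BP1 peaks, 3 were lower and 1 higher with emetine by mean logs. The peak at chr17:47131556-47131620 had 2, 0 and 0 reads with emetine, against 2, 26 and 11 in the control, and that at chr17:47129857-47129897 had 0, 0 and 2 against 1, 20 and 2. The peak at chr17:47127608-47127653 had 1, 11 and 2 against 6, 27 and 10. For chr17:47131175-47131230 the reads were 3, 26 and 2 with emetine, against 2, 0 and 21 in the control, and its log2 change of 1.34 became -0.29 without control library 2. None of these was called, and the limma adjusted p of each was at least 0.78.

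**Figure D3:**
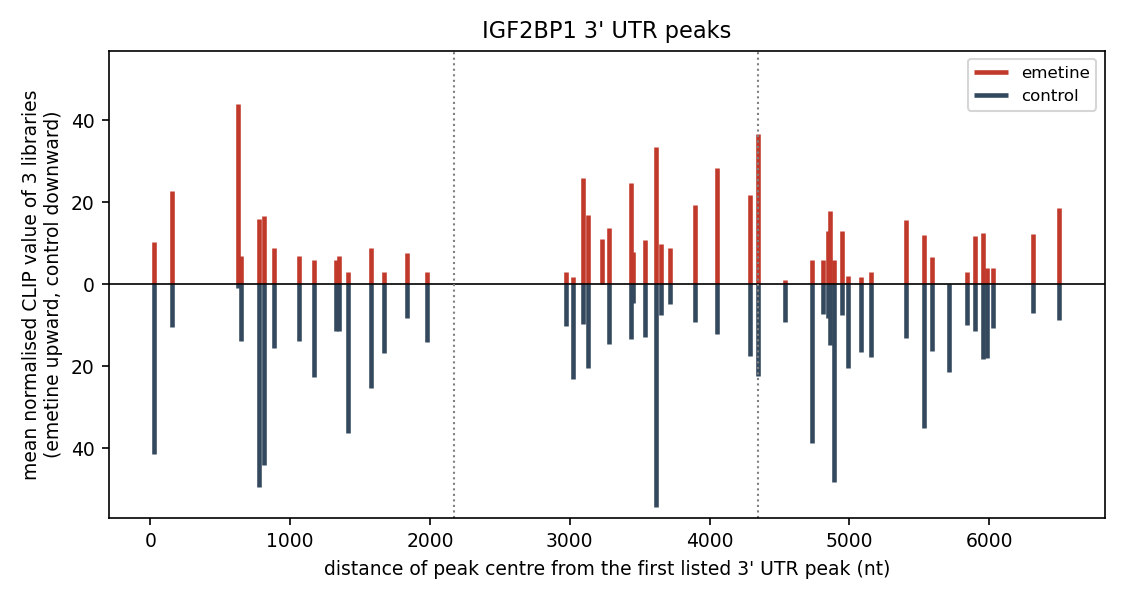
Mean normalised CLIP value of 3 libraries for each IGF2BP1 3' UTR peak, with emetine upward and control downward, by distance of the peak centre from the start of the first listed peak (nt); dotted lines mark 3 segments of equal length in the span of 6518 nt. Single peaks go both ways in every segment, while the segment totals give emetine to control ratios of 0.447, 0.944 and 0.477 along the span.

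In LIN28B, 4 of 5 peaks had no read in any emetine library, against 20.2% of all peaks. The 3' UTR peak at chr6:105529290-105529326 (hg19, + strand) had 0 reads in each emetine library and 0, 29 and 13 in the control. With the emetine total set at a floor of 3 reads it was 12.6-fold lower with emetine. The coding peak at chr6:105526324-105526355 had its 21 control reads in library 2 alone (6.30-fold lower with that floor). The peak at chr6:105527070-105527101 had 0, 4 and 9 in the control (3.90-fold lower with that floor). All 3 lacked reads in control library 1, so none separated the treatments. The peak at chr6:105528022-105528046 had no emetine read, and its 13 control reads lay in library 2 alone. The only LIN28B peak with emetine reads, chr6:105529110-105529145, had 1, 1 and 6, against 0, 0 and 3 in the control.

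The 4 IGF2BP3 peaks had 3 higher and 1 lower with emetine by mean logs. The 3' UTR peak at chr7:23351410-23351434 (hg19, - strand) had 5, 16 and 0 reads with emetine, against 6, 7 and 2 in the control. The second, chr7:23351568-23351616, had 1, 11 and 1 against 1, 1 and 1. In both, emetine library 2 held the most reads and the groups overlapped. The coding peak at chr7:23352397-23352438 had 1, 0 and 3 reads with emetine, against 0, 0 and 11 in the control. For the first of these peaks the log2 change of -0.47 turned to 0.24 without control library 1 and to 1.38 without emetine library 3, and for the coding peak 0.58 became -0.22 without control library 1 or control library 2. The single IGF2BP2 peak was at chr3:185361606-185361630.

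The authors' deposited table sets CLIP against RNA, and on that scale the genes stood at different heights. The authors' log2 average of the HMGA1 peaks lay between percentiles 87.9 and 98.7 of all listed peaks. The HMGA1 averages rest on few RNA reads, 46 with emetine and 24 in the control. For HMGA2 peaks the log2 average lay between percentiles 46.4 and 91.8. The IGF2BP1 peaks reached from 6.78 to 77.9 and the LIN28B peaks from 23.7 to 47.4. In the authors' deposited table the log2 ratio of emetine to control was above 0 for 11 of 14 HMGA2 peaks, 21 of 55 IGF2BP1 peaks and 1 of 5 LIN28B peaks, against 50.8% of all peaks. It was above 0 for 3 of 6 HMGA1 peaks, 3 of 4 IGF2BP3 peaks and 0 of 1 IGF2BP2 peak. Peaks of a gene share its RNA values, so they are not independent, and by CLIP alone 9 of 14 HMGA2 peaks were higher. The highest authors' ratio, at the HMGA2 peak chr12:66359718-66359752, was 5.19, and the lowest, at LIN28B chr6:105529290-105529326, was -3.90.

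**Figure D4:**
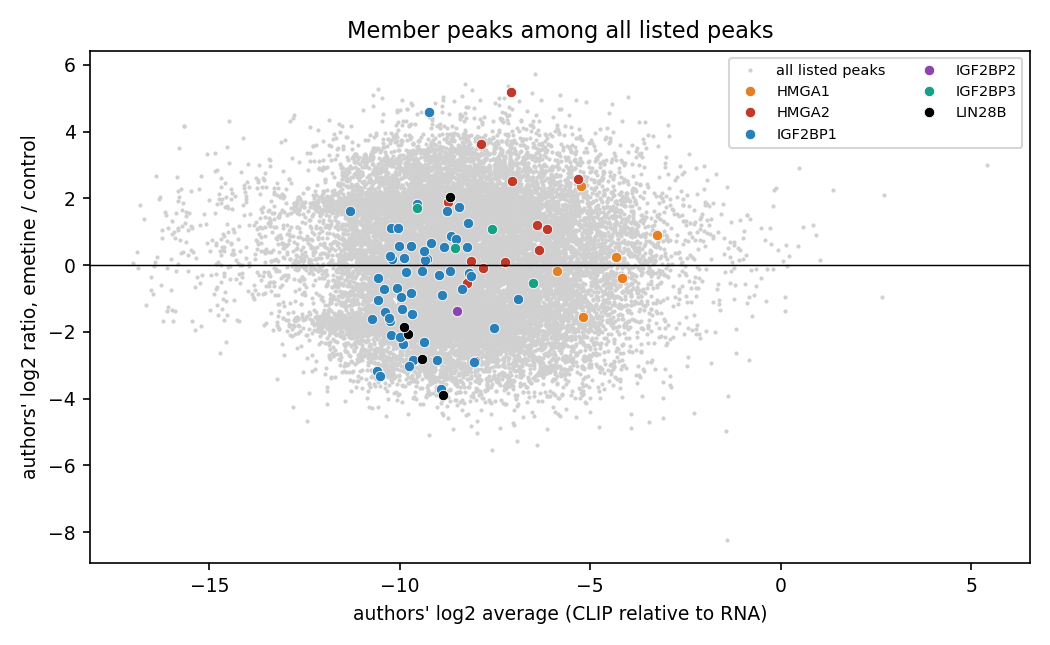
The authors' log2 average (CLIP relative to RNA, horizontal) and log2 ratio of emetine to control (vertical) of all listed peaks in grey and of the 6 genes in colour. HMGA1 peaks lie mostly to the right, IGF2BP1 peaks to the left, and 1 HMGA2 peak is highest among them at 5.19.

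The RNA of the 6 genes did not differ beyond counting error, and with 1 library per treatment it has no replicate check. HMGA2 had 278 RNA reads with emetine and 129 in the control, which after normalisation is a log2 ratio of -0.24 (exact 95% interval -0.54 to 0.08). IGF2BP1 had 1852 RNA reads with emetine and 690 in the control (0.08, -0.05 to 0.21), and LIN28B 722 with emetine and 265 in the control (0.10, -0.10 to 0.31). Their intervals all included 0.

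IGF2BP3 had 569 RNA reads with emetine and 214 in the control (0.07, -0.16 to 0.30), IGF2BP2 231 and 110 (-0.27, -0.61 to 0.07) and HMGA1 46 and 24 (-0.40, -1.15 to 0.37). For 0 of the 6 genes did the counting interval exclude 0, against 27.6% of 5810 genes with at least 50 RNA reads. For 0 of the 6 was the log2 ratio beyond 1 in either direction (1.64% of those genes), and for 3 of the 6 it was above 0 (50.9%). Per kilobase of transcript, the normalised RNA value was highest for IGF2BP1, at 562 with emetine and 532 in the control. It was 336 and 321 for IGF2BP3, 329 and 307 for LIN28B, 157 and 190 for IGF2BP2, 156 and 184 for HMGA2 and 61.2 and 81.1 for HMGA1. IGF2BP3 stood next to LIN28B and IGF2BP2 next to HMGA2, and with no replicates the order within these pairs cannot be judged against a spread.

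The CLIP value over the RNA value placed the genes differently. HMGA1 stood at percentile 96.7 of all genes with emetine and 94.3 in the control, HMGA2 at 94.2 and 87.8, and IGF2BP1 at 85.4 and 91.1. The HMGA1 values rest on 46 RNA reads with emetine and 24 in the control, and its reads are uncertain. LIN28B was at percentile 23.1 with emetine and 66.7 in the control, and IGF2BP3 at 65.8 with emetine and 51.8 in the control.

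**Figure D5:**
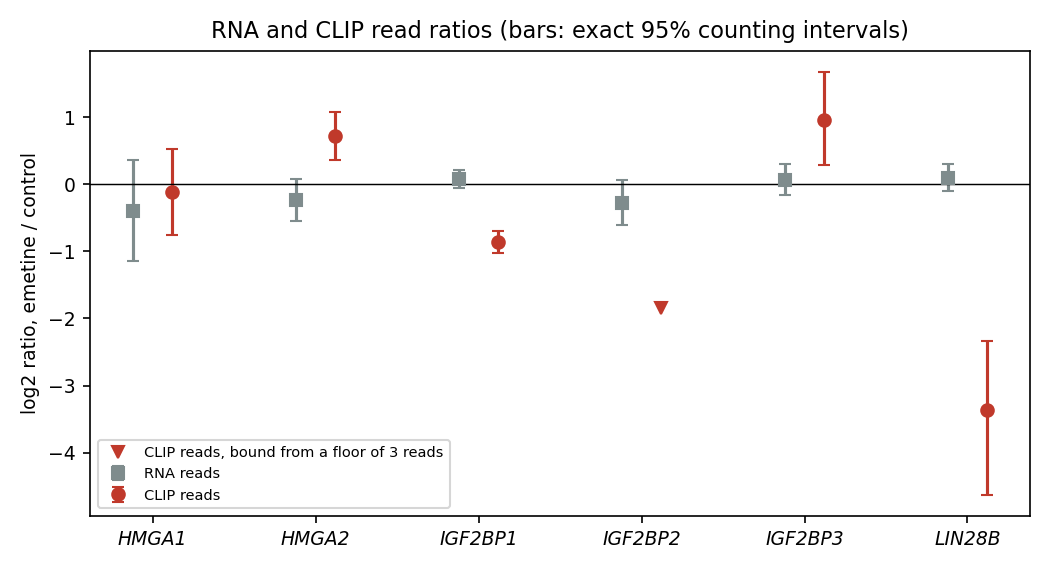
Log2 ratio of emetine to control for RNA reads (grey squares) and for depth-scaled CLIP read totals (red circles) of each gene, with exact 95% counting intervals. The triangle is the ratio for IGF2BP2 with its emetine total set at a floor of 3 reads. All RNA intervals include 0, while the CLIP intervals of HMGA2 and IGF2BP3 lie above 0 and those of IGF2BP1 and LIN28B below; these intervals leave out the spread between libraries.

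The pathways around these genes showed 0 calls in limma in any list. Of 18 regulators of let-7 processing 13 had peaks, 5 higher and 8 lower with emetine, with a median log2 change of -0.07, against 0.04 over all genes. DICER1, which cuts let-7 out of its precursor and is itself a let-7 target, had 30, 224 and 273 reads with emetine, against 23, 344 and 115 in the control (log2 change 0.48, limma adjusted p = 0.80). The helicases DDX17 and DDX5 of the Drosha complex had log2 changes of 0.18 and -0.22.

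Of 44 other known let-7 targets 36 had peaks, 16 higher and 20 lower, with a median of -0.04. Those with most reads besides DICER1 were the cyclins CCND2 and CCND1, with log2 changes of -0.04 and -0.23. Of 13 genes of the IGF axis 8 had peaks, 2 higher and 6 lower, with a median of -1.02. IGF1R, the receptor for insulin-like growth factors, had 17, 102 and 79 reads with emetine, against 41, 244 and 152 in the control. Its normalised control values all stood above those with emetine, as for 2.18% of all genes (log2 change -1.01, SE 0.62, limma adjusted p = 0.80). The adaptor IRS4 and the insulin receptor INSR had log2 changes of 0.34 and -1.04, with overlapping libraries.

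Of 13 mRNAs known to be bound by IGF2BP proteins 8 had peaks, 4 higher and 4 lower, with a median of 0.18. ACTB, the classic cargo of IGF2BP1 in cell protrusions, had 29, 79 and 131 reads with emetine, against 19, 5 and 63 in the control. All emetine values stood above all control values after normalisation, as for 3.01% of all genes (log2 change 2.00, SE 0.86, limma adjusted p = 0.80), while its RNA log2 ratio was -0.41. MYC, whose mRNA IGF2BP1 stabilises, had a CLIP log2 change of 0.45 and an RNA log2 ratio of 1.03 (0.56 to 1.54). SRF had a CLIP log2 change of -0.20.

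Over the 6 libraries, the genes whose CLIP profile was most like the summed profile of the set, among 410 genes with at least 200 reads, were PPIA (Pearson r = 0.93), HDGF (0.93), ACVR2B (0.92), AGPAT3 (0.90) and SCD (0.89). These coefficients describe 6 shared libraries, and IGF2BP1 gives most of the reads of the set.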

How the data were processed

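Ago2 CLIP (6 libraries) and RNA-seq (2 libraries) came from 293S cells with and without emetine. For every peak the authors had combined normalised CLIP and RNA values into an average and a ratio of treatments, deposited as logs per the file headers; the natural log fits these deposited values of the authors, although no header names the base, and log2 was obtained by division. The submitters' processing notes name hg19, Bowtie 0.12.8, TopHat and DESeq. Peak caller and start convention: not given in the sources used here. Coordinates are as listed.

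Average and ratio give 1 value per treatment, which is ln(1 + reads × factor) averaged over 3 CLIP libraries, less the same term for RNA. Whole reads solving this were found for 22501 of 22506 peaks (99.98%, tolerance 1e-13), while deliberately shifted values matched for 20 of 4984 (emetine) and 14 of 4984 (control). The 5 others were left out. After normalisation 1 read counted 8.86, 3.00 and 2.81 in emetine and 8.00, 2.82 and 2.43 in control CLIP libraries 1 to 3, and 2.51 and 6.37 in the RNA libraries. Antibodies could not be assigned to libraries.

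limma 3.58.1 (R 4.3.3) with a trend was fitted to log2(reads × factor + 1) over all peaks and over gene sums, unfiltered, with treatment as the only term and a Benjamini-Hochberg threshold of 0.05, and the steps were tested on simulated data. No count model was the main test, because the deposited unit is a log. Shares used exact two-sided permutation tests (scipy 1.17.1, Python 3.11.15). Ratios of totals carry exact binomial 95% intervals, which cover counting error only. A total of 0 reads was set at 3 reads, and the resulting fold is not a lower bound.

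The genes and lists were chosen with earlier results of these data known. Named peaks were the 3 with most reads per gene and the 3 highest and 3 lowest authors' ratios among peaks with at least 20 reads. Seeds come from RefSeq GRCh38.p14 and 3' UTRs from GENCODE 29, and no coordinates were converted. Alternatives covered scaling, the constant (0.5, 5), reads in at least 3 libraries, limma-voom, a replicate block, libraries left out, overlapping peaks and largest peaks.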

Additional observations from a re-analysis of the deposited data

How the results depend on the processing

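No member gene or named peak was called under any alternative. HMGA2 kept a positive and IGF2BP1 a negative log2 change under every alternative run, from 0.43 to 1.03 and from -0.89 to -0.38 with 1 library left out. The labels share antibodies between treatments, but libraries could not be assigned to them. Libraries of the same number correlated at 0.17, 0.057 and 0.021 in their deviations. As a replicate block that number gave 2 called peaks and 1 called gene, and limma-voom gave 1 called gene (ZNF711), none of them members. Leaving out any 1 library gave 0 calls of peaks and of genes. HMGA1 changed sign with limma-voom (-0.015) and as a ratio of totals (-0.11), and over libraries left out ran from -0.34 to 0.82. Likewise IGF2BP2 and its peak ran from -2.46 to 0, IGF2BP3 from -0.38 to 1.28 and LIN28B from -3.61 to 0.18. Among peaks, HMGA1 34213325 ran from -0.082 to 1.11 (-0.070 by totals), HMGA2 66218986 from -1.35 to 1.86, IGF2BP1 47131175 from -0.29 to 2.56 and LIN28B 105526324 from -2.96 to 0. IGF2BP3 23351410 ran from -1.43 to 1.38 (0.0054 with a constant of 5, 0.64 by totals), and IGF2BP3 23352397 from -0.22 to 2.18 (-1.31 by totals). The difference in 3' UTR share ran from -1.55 to 1.52 percentage points and that in the set's share of all reads from -0.182 to -0.0825, and without IGF2BP1 the share difference was 0.00684. The causes were not tested. Single peaks of the set hold 11 to 69 reads over the 6 libraries, which limits their values.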
